A study of Mus musculus with 12 samples.

Results

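The genes Prrx1, Prrx2, Twist1, Twist2, Tfap2a, Tfap2b, Lhx6, Lhx8 and Six2 encode transcription factors of 5 families that are expressed in the mesenchyme of the embryonic face. They were chosen by name, and each matched 1 row among the 53392 mouse gene identifiers of the deposited tables, so 9 of 9 were found. Polyadenylated RNA was measured in 12 sequencing libraries from embryos on a 129S4 strain background, in 4 groups of 3. Wild-type palatal shelves (Pdgfra+/+) and palatal shelves homozygous for the Pdgfra PI3K allele (PdgfraPI3K/PI3K) were taken at E13.5 (embryonic day). The palatal shelf is the outgrowth of the upper jaw that forms the secondary palate, PDGFRα, the product of Pdgfra, is a receptor tyrosine kinase, and the PI3K allele is an altered form of that gene. Maxillary processes, the swellings from which the shelves grow, were taken at E11.5 from embryos of the genotypes Srsf3fl/fl;Wnt1-Cre+/+ (control) and Srsf3fl/fl;Wnt1-Cre+/Tg (labelled cKO). Both maxillary groups were thus homozygous for a floxed allele of Srsf3, which encodes an SR protein that regulates splicing, and only the cKO group carried the transgene. Wnt1-Cre acts in the neural crest lineage and leaves Srsf3 intact in other cells of the tissue. The labels state that the covering ectoderm was digested away with trypsin. Whether a library held RNA of 1 embryo or of several is not given in the sources used here.

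Cranial neural crest cells fill the facial prominences and form most of the facial skeleton and connective tissue. Prrx1 and Prrx2 are paired-type homeodomain proteins of undifferentiated mesenchyme. Twist1 and Twist2 are basic helix-loop-helix proteins that bind E-box sequences as dimers, often with E proteins, and Twist1 is needed for normal crest-derived mesenchyme. Tfap2a and Tfap2b are AP-2 factors that act in neural crest and in ectoderm. Lhx6 and Lhx8 are LIM homeodomain proteins of the oral side of the jaw mesenchyme that act together in palate growth. Six2 is a homeodomain protein that works with Eya coactivators and is known from progenitor cells of several organs.

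The promoters of the genes whose level differed between the tissues, below, were read from RefSeq (build GRCm38.p6) to show what lies upstream of each. The window was the 250 bases before an annotated start, and RefSeq gave 12 starts for the 9 genes. Capitals mark the motifs searched on both strands, which were CANNTG (the E-box read by Twist proteins), TAATTA (a homeodomain core), GCCNNNGGC (an AP-2 core) and TATAAA (the TATA box). These letters do not overlap in the windows printed. Prrx1 is shown from chr1:163313711-163313900 (minus strand), which leaves out the 60 bases that GENCODE M21 places in an exon of Prrx1. Twist1 is shown from chr12:33957421-33957670 (plus strand) and Twist2 from chr1:91801211-91801460 (plus strand). Tfap2b is shown from chr1:19211804-19212053 (plus strand) and the outermost start of Lhx6 from chr2:36105409-36105658 (minus strand).
Prrx1: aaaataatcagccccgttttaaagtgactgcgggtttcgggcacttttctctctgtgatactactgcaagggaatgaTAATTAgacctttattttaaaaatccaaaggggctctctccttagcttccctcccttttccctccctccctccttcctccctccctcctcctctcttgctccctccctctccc
Twist1: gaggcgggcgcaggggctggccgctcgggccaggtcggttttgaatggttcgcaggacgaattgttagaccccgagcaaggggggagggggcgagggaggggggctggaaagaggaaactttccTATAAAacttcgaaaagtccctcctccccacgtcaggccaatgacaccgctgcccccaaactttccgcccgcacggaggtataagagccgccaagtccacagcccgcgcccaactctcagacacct
Twist2: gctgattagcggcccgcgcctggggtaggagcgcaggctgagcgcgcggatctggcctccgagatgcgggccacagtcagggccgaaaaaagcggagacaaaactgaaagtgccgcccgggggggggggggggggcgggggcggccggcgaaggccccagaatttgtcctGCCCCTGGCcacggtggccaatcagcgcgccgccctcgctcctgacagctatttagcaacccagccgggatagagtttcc
Tfap2b: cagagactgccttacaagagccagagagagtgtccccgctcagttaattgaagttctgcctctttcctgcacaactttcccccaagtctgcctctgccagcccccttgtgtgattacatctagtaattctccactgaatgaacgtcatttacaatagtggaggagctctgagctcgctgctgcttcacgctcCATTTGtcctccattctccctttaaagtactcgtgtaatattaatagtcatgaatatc
Lhx6: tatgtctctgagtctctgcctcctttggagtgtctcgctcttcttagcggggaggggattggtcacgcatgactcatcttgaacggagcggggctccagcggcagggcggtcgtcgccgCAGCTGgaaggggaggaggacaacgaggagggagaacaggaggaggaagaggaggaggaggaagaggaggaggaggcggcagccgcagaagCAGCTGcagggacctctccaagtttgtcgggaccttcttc
Of 32851 RefSeq promoters of the same length, 66.2% held CANNTG, 4.84% TAATTA, 13.7% GCCNNNGGC and 12.4% TATAAA. The Prrx1 window held 1 TAATTA, the Twist1 window 1 TATAAA, the Twist2 window 1 GCCNNNGGC, the Tfap2b window 1 CANNTG and the Lhx6 window 2 CANNTG. Prrx2 is not printed because its 250 bases lie in a GENCODE exon of the gene, and it held 2 GCCNNNGGC. GC content was 47.6% for Prrx1 and 70.0% for Prrx2, and 62.4% for Twist1 and 68.8% for Twist2, against a median of 52.4% over all promoters. It was 46.4% for Tfap2b and 47.6% and 60.4% for the 2 starts of Tfap2a. The 3 starts of Lhx6 had 61.6%, 57.2% and 46.0%, and Lhx8 had 46.0%.

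The 9 genes are annotated as protein-coding in GENCODE M21 (mouse build GRCm38). Prrx1 (ENSMUSG00000026586.16) lies at chr1:163245119-163313710, Prrx2 (ENSMUSG00000039476.13) at chr2:30834972-30881251, Twist1 (ENSMUSG00000035799.6) at chr12:33957671-33959829 and Twist2 (ENSMUSG00000007805.4) at chr1:91801461-91848028. Tfap2a (ENSMUSG00000021359.16) lies at chr13:40715302-40738376, Tfap2b (ENSMUSG00000025927.13) at chr1:19208914-19238576, Lhx6 (ENSMUSG00000026890.19) at chr2:36081953-36105408, Lhx8 (ENSMUSG00000096225.7) at chr3:154306294-154330659 and Six2 (ENSMUSG00000024134.11) at chr17:85684277-85688274. Genes on the opposite strand overlap Prrx1, Twist2 and Tfap2a (3 models), and whether the counting used strand is not given in the sources used here, so their values may include antisense reads. No stretch of 31 bases was shared within any of the 4 pairs of paralogs, and Lhx6 shared 1.60% of its stretches with the small RNA gene Gm27953 inside it.

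Palatal shelf libraries held 30.5 to 37.4 M (megacounts) of estimated counts and maxillary libraries 15.9 to 27.9 M. Normalised levels are given as CPM, counts scaled to library totals and TMM factors over the 12 libraries, and levels of different genes are compared in TPM, which is also scaled for transcript length. Srsf3 itself was not lower in the libraries labelled cKO, with 478, 694 and 640 CPM against 621, 595 and 562 CPM in controls. The gene total includes exons outside a deletion, so it does not test the label, and every direction below for the libraries labelled cKO rests on the labels. Pdgfra was at 436, 465 and 544 CPM in PI3K shelves and 483, 458 and 488 CPM in wild-type shelves. The 10 mesenchyme markers were detected in all 12 libraries, with sums of 12227 to 20188 CPM in palatal shelves and 4899 to 9014 CPM in maxillary processes. The libraries differed more in ectoderm markers. The 13 ectoderm markers summed to 446 to 1057 CPM in palatal shelves and to 2.08 to 27.5 CPM in maxillary processes. Markers of other cells also differed between the maxillary groups. The 7 endothelial markers summed to 827, 481 and 431 CPM in the cKO libraries and 323 to 330 CPM in controls, and the 9 periocular mesenchyme markers to 552, 217 and 254 CPM against 122 to 156 CPM. The ectoderm markers summed to 20.2, 12.7 and 27.5 CPM against 2.08 to 11.6 CPM, so each of these 3 sums was higher in every cKO library than in every control. So were the sums of 7 macrophage markers (46.5, 27.2 and 24.9 against 17.1 to 24.5 CPM) and, at low levels, 7 skeletal muscle markers (7.97, 2.27 and 5.41 against 0.358 to 0.843 CPM). The 7 neuron and glia markers tested were all lower in the cKO libraries (median log2 fold change -0.99), though their sums overlapped. Library 1 of the cKO group had the highest endothelial and periocular sums of the maxillary libraries, and its 8 red blood cell markers summed to 12369 CPM against 4283 to 7184 CPM in the other 5. Control library 3 had the highest sums of 10 neuron and glia markers (197 CPM, others 53.4 to 110 CPM) and 10 forebrain markers (77.7 CPM, others 10.2 to 24.6 CPM), and of the mesenchyme markers (9014 CPM, others 4899 to 6588 CPM). Some results that rest on either library are therefore given with and without it. In bulk tissue, fewer cells of a type and less RNA per cell cannot be told apart.

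Prrx1 and Twist1 were the most abundant of the 9 in every group, and the AP-2 genes the least. In wild-type palatal shelves, Prrx1 stood at 392, 406 and 513 TPM, and its mean ranked 298 of 16877 genes. Twist1 followed at 372, 452 and 415 TPM and Six2 at 246, 397 and 346 TPM, and each of these overlapped with the next, while Six2 lay above Prrx2 without overlap. Prrx2 (202, 160 and 162 TPM) and Lhx8 (121, 182 and 130 TPM) came next and overlapped. Lhx6 (80.6, 111 and 106 TPM) lay below both without overlap, and Twist2 lay lower still at 49.3, 52.3 and 50.4 TPM. Tfap2b (16.8, 41.6 and 24.1 TPM) and Tfap2a (14.9, 22.9 and 19.2 TPM) were lowest, and overlapped with each other.

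The order in the control maxillary process was close to this, with changes at both ends. Twist1 headed it at 582, 669 and 788 TPM and overlapped with Prrx1 at 517, 586 and 609 TPM. Prrx2 (270, 245 and 229 TPM) and Six2 (212, 246 and 248 TPM) overlapped, above Lhx8 (189, 156 and 154 TPM). Lhx6 (136, 121 and 111 TPM) and Twist2 (91.9, 87.5 and 172 TPM) overlapped as well. Tfap2a stood at 12.9, 9.88 and 11.8 TPM and Tfap2b, here the lowest, at 5.78, 4.95 and 3.08 TPM, with no overlap. In the control maxillary process the mean of Tfap2b ranked 10599 of 16877 genes, against 6057 in wild-type shelves. The mutant groups kept Twist1 and Prrx1 at the head and Tfap2a and Tfap2b at the foot. In PI3K shelves Twist1 stood at 449 ± 81.6 TPM (SD, n = 3), Prrx1 at 404 ± 27.4 TPM and Six2 at 354 ± 98.8 TPM, and Tfap2b (36.3 ± 5.13 TPM) lay above Tfap2a (17.5 ± 5.62 TPM) without overlap. In the cKO libraries Twist1 stood at 475 ± 126 TPM and Prrx1 at 369 ± 120 TPM, and neighbours in the order overlapped from Twist1 down to Twist2 (85.2 ± 7.09 TPM). Tfap2a (12.6 ± 5.34 TPM) lay above Tfap2b (3.04 ± 2.27 TPM) there. The 9 genes together made up 1495 to 1825 TPM in wild-type shelves, 1515 to 2047 TPM in PI3K shelves and 2017 to 2326 TPM in control maxillary processes. In the cKO libraries they made up 1112, 1859 and 1916 TPM, the lowest being library 1.

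**Figure D1:**
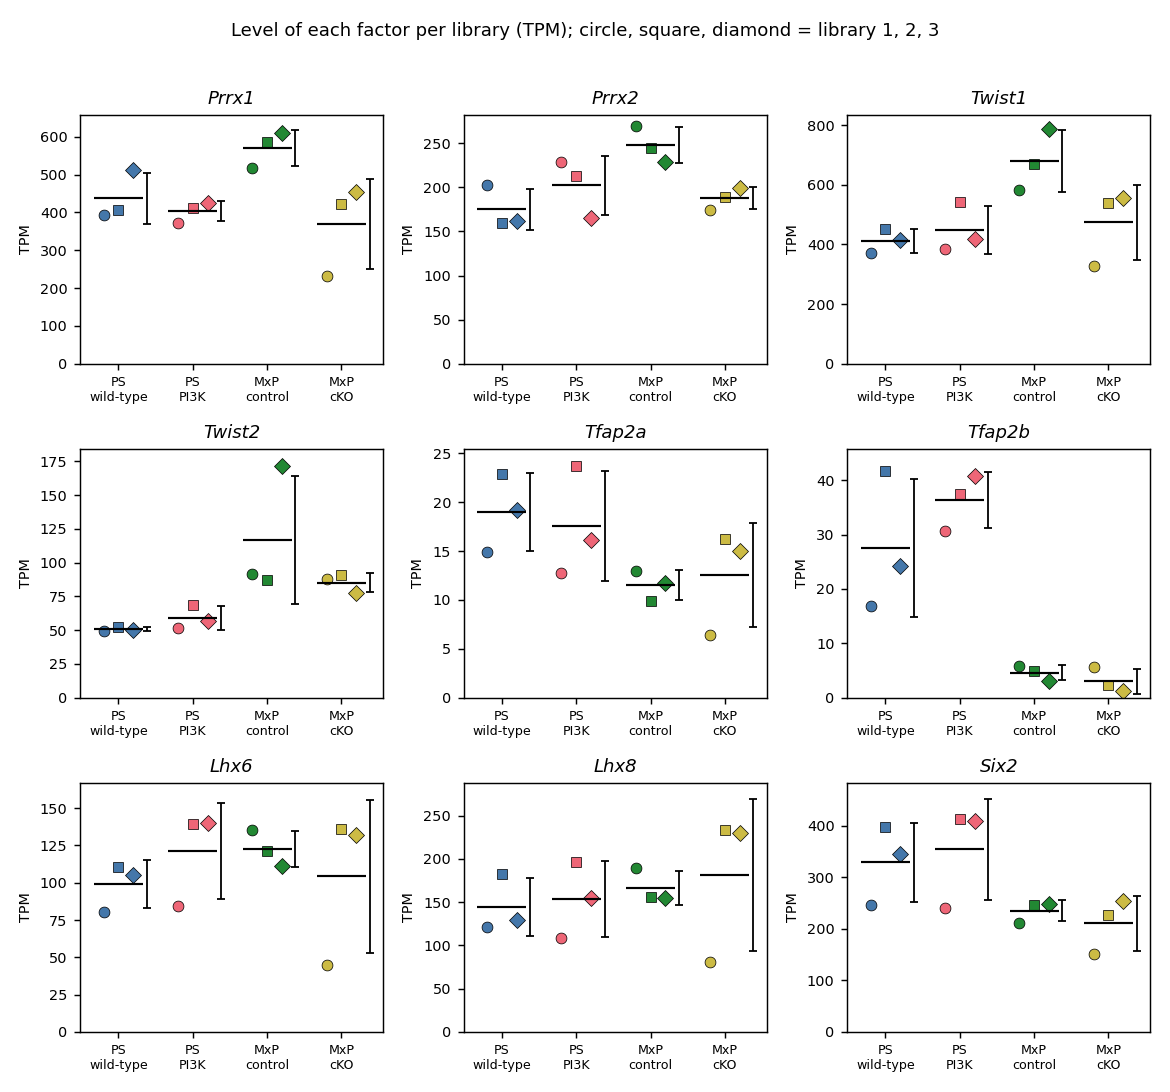
Level of each of the 9 genes in each of the 12 libraries, in TPM on axes that start at 0. Circles, squares and diamonds are libraries 1, 2 and 3 of a group, horizontal lines are group means and bars are 1 SD (n = 3). Prrx1 and Twist1 are highest, Tfap2b differs most between palatal shelf (PS) and maxillary process (MxP), and cKO library 1 is low for most genes.

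The first comparison asked whether these factors differ between PI3K and wild-type palatal shelves, and none did by the test. No gene of the 16525 tested passed an adjusted p of 0.05 (edgeR quasi-likelihood F-test, Benjamini-Hochberg adjustment), which is 0.0%, and 354 genes (2.14%) had an unadjusted p under 0.05. DESeq2 called 5 genes. Of the 9 factors, 7 had a higher and 2 a lower mean in PI3K shelves, 0 had an unadjusted p under 0.05, and the adjusted p was 0.9997 for each. Their log2 fold changes ran from -0.06 to 0.29 with a median of 0.12, against -0.01 over all genes tested. No factor had groups that did not overlap, while 6.23% of all genes tested did.

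The Prrx and Twist genes gave the narrowest intervals. Prrx1, the more abundant paired-type factor, stood at 748, 787 and 971 CPM in wild-type and 708, 952 and 801 CPM in PI3K shelves. The values were interleaved, and the log2 fold change was -0.02 with a 95% interval of -0.35 to 0.31. Its paralog Prrx2 stood at 119, 95.5 and 97.6 CPM in wild-type and 130, 119 and 90.3 CPM in PI3K shelves, again overlapping (log2 fold change 0.12, interval -0.24 to 0.49). Twist1 was at 308, 374 and 337 CPM in wild-type and 318, 453 and 337 CPM in PI3K shelves, where library 2 was the highest of the 6. Its log2 fold change was 0.13 (interval -0.22 to 0.47). Twist2 was at 32.5, 34.4 and 32.4 CPM in wild-type and 33.8, 45.7 and 36.3 CPM in PI3K shelves. Here 2 of the 3 PI3K libraries lay above every wild-type library, and the log2 fold change of 0.23 (interval -0.07 to 0.52) had an unadjusted p of 0.116.

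Tfap2a, Lhx6, Lhx8 and Six2 spread more within each group, and Tfap2b did so in wild-type shelves only. Tfap2b had the largest log2 fold change of the 9, with 44.6, 79.7 and 54.0 CPM in wild-type and 66.6, 75.5 and 74.7 CPM in PI3K shelves. The PI3K libraries lay close together and inside the wild-type range, and the log2 fold change was 0.29 (interval -0.18 to 0.76). Tfap2a stood at 17.0, 28.1 and 23.5 CPM in wild-type and 16.1, 30.4 and 19.4 CPM in PI3K shelves, with a log2 fold change of -0.06 (interval -0.69 to 0.58). Lhx6 stood at 132, 190 and 173 against 135, 226 and 214 CPM. Lhx8 stood at 103, 147 and 104 against 84.2, 156 and 124 CPM, and Six2 at 260, 420 and 360 against 255, 446 and 417 CPM. For these 3 genes library 1 was the lowest and library 2 the highest in both groups, and the log2 fold changes of 0.22, 0.04 and 0.11 were within that spread. The signs depended on single libraries, since without PI3K library 1 all 9 means were higher in PI3K shelves, and without PI3K library 2 there were 4 higher and 5 lower, with 0 passing the test in either case.

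**Figure D2:**
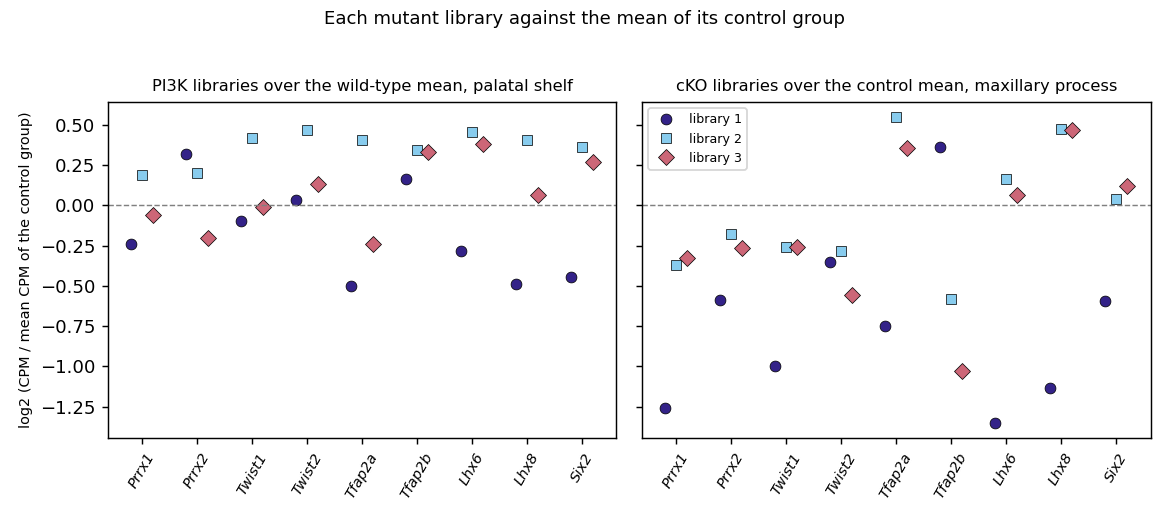
Each mutant library as the log2 ratio of its CPM to the mean CPM of its control group, for the 9 genes. Left, PI3K libraries over wild-type palatal shelves; right, libraries labelled cKO over control maxillary processes; each point is 1 library and the dashed line is equality. The PI3K libraries scatter around the line except for Twist2 and Tfap2b, where all 3 lie above it. The points of cKO library 1 lie farthest below the line for Prrx1, Twist1, Lhx6 and Lhx8.

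The second comparison set maxillary processes labelled cKO against controls. Prrx1, Prrx2 and Twist1 were lower in every cKO library than in every control library, but no factor passed the test over all genes. Of 14254 genes tested, 12 passed (0.0842%), 8 higher and 4 lower. With the replicate number as a block 40 passed, 22 higher and 18 lower. An unadjusted p under 0.05 was found for 12.2% of genes. Of the 9 factors, 7 had a lower and 2 a higher mean, 0 passed, and 2 had an unadjusted p under 0.05. With the block 0 passed, 8 were lower and 1 higher, and 3 (Prrx1, Prrx2 and Twist1) had an unadjusted p under 0.05, where 13.1% of genes did. The median log2 fold change without the block was -0.29 against 0.004 over all genes. The 3 factors of 9 that were lower without overlap compare with 9.37% of all genes tested that were lower without overlap. When control library 3 was left out, 7 of the 9 factors had a lower mean and 0 passed. An unadjusted p under 0.05 was then found for 1 factor, and for 1220 of 14498 genes (edgeR).

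Prrx1 had control values of 1134, 1281 and 1236 CPM and cKO values of 509, 941 and 969 CPM. Every cKO library lay below the lowest control, library 1 by far the most, and the log2 fold change was -0.59 ± 0.23 (SE; unadjusted p = 0.0329, adjusted p = 0.380, edgeR). Prrx2 had control values of 169, 163 and 144 CPM and cKO values of 105, 140 and 132 CPM. The gap between the groups was small, and the log2 fold change was -0.33 ± 0.12 (unadjusted p = 0.0264, adjusted p = 0.365, edgeR). Twist1 had control values of 541, 615 and 675 CPM and cKO values of 306, 510 and 510 CPM. Its groups were also apart, with a log2 fold change of -0.47 ± 0.20 (unadjusted p = 0.0502, adjusted p = 0.409, edgeR). Twist2 did not separate, at 67.6, 63.4 and 116 CPM among controls and 64.7, 67.7 and 56.2 CPM in the cKO libraries. Its fitted value of -0.39 (interval -0.93 to 0.15) became -0.05 without control library 3, the library at 116 CPM and the one with the most neuron, forebrain and mesenchyme marker RNA.

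Without cKO library 1, 4 of the 9 factors had an unadjusted p under 0.05, against 2 with it, and 1770 of 14519 genes did (edgeR). The log2 fold changes of Prrx1, Prrx2 and Twist1 were smaller in size. Prrx1 was then at -0.35, Prrx2 at -0.22 and Twist1 at -0.26 on the log2 scale, with adjusted p-values of 0.294, 0.412 and 0.434. Alongside them, 7 of 7 endothelial markers tested were higher in the cKO libraries (median log2 fold change 0.79, 7 with an unadjusted p under 0.05), and without library 1 again 7 of 7 (0.45, 7). Of the 8 ectoderm markers tested 8 were higher (2.05, 5 with an unadjusted p under 0.05), and 8 of 8 without library 1 (1.83, 5). Over all genes 12.2% had an unadjusted p under 0.05, and without library 1 it was 1770 of 14519 genes. Of the periocular markers 7 of 8 tested were higher, and 5 of 9 without library 1. The mesenchyme markers had 8 of 10 lower with a median of -0.12, and 9 of 10 lower with -0.32 without library 1. In library 1 they went opposite ways. Snai2 (46.5 CPM), Cdh11 (637 CPM), Col1a2 (884 CPM) and Col1a1 (258 CPM) lay below every control. Col3a1 (1955 CPM) and Pdgfra (443 CPM) lay above every control. The part of these cell types in the lower Prrx1, Prrx2 and Twist1 was not tested. The count of genes that passed rose from 12 to 29 without that library, and none of the 9 factors was among them.

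Tfap2b and the LIM genes showed the widest relative spread among the cKO libraries (SD over mean CPM 51.2% for Tfap2b, 49.9% for Lhx8 and 46.9% for Lhx6). Lhx6 had control values of 234, 220 and 195 CPM and cKO values of 85.0, 242 and 226 CPM. Lhx8 had control values of 167, 138 and 121 CPM and cKO values of 64.7, 197 and 196 CPM. For both, library 1 lay below every control and library 2 above every control. The log2 fold changes of -0.23 (interval -1.02 to 0.57) for Lhx6 and 0.11 (interval -0.77 to 0.98) for Lhx8 became 0.11 and 0.47 without cKO library 1. Six2 had control values of 240, 277 and 255 CPM and cKO values of 170, 264 and 280 CPM, and its value of -0.11 (interval -0.53 to 0.30) became 0.08 without library 1. Tfap2a had control values of 19.8, 14.9 and 15.9 CPM and cKO values of 10.0, 24.6 and 21.5 CPM, where libraries 2 and 3 exceeded all controls and library 1 lay below them. Its value of 0.16 (interval -0.56 to 0.88) became 0.46 without library 1. Tfap2b had the lowest mean of the 9 in both groups, at 10.2, 6.15 and 7.45 CPM among controls and 10.2, 5.31 and 3.89 CPM in the cKO libraries. These were 69.0 to 193 estimated counts. Tfap2b was the only gene of the 9 for which library 1 was the highest cKO library, and its value of -0.29 became -0.78 without that library (adjusted p = 0.368, edgeR). In all, library 1 was the lowest cKO library for 7 of the 9 genes.

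Whether the factors respond differently to the PI3K allele and to the labelled loss of Srsf3 was tested directly, as the difference between the genotype effects over all 12 libraries. Of 16877 genes, 7 passed (0.0415%), and 8.69% had an unadjusted p under 0.05. None of the 9 factors passed, and 0 had an unadjusted p under 0.05. The effect was more positive in the palatal shelf for 7 of 9. With the replicate number as a block in both tissues, 0 passed, 8 of 9 were more positive and 4 had an unadjusted p under 0.05 (Twist1, Prrx1, Prrx2 and Tfap2b), where 10.6% of genes did. The adjusted p was then at least 0.276 for each factor (edgeR). Without the block the smallest p-values belonged to Twist2 (difference 0.61 on the log2 scale, unadjusted p = 0.0530, edgeR), Prrx2 (0.45, 0.0541) and Twist1 (0.59, 0.0545), followed by Prrx1 (0.57, 0.0819). Their adjusted p-values were 0.581 to 0.626. This test also compares tissues and stages, which cannot be told apart from the genotypes.

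The third comparison set wild-type palatal shelves against control maxillary processes, and here 6 of the 9 factors differed. Tfap2b was higher in the palatal shelf, and Twist2, Twist1, Prrx2, Prrx1 and Lhx6 were lower. In this comparison 7965 of 15752 genes passed (50.6%), with 27.1% of genes higher and 23.4% lower, so 6 of 9 is a share near that of all genes. Groups that did not overlap were found for the same 6 factors, and for 62.1% of all genes tested. The directions of all 9, 3 higher and 6 lower, were the same under every alternative run. Of the genes that passed, 53.7% were higher in the palatal shelf, and 69.0% with limma on log2(TPM + 1), which moved the median over all genes from 0.03 to 0.16. Tissue, stage, sequencing lane as the labels give it and the floxed Srsf3 background cannot be told apart in this comparison, which shares its libraries with the other comparisons as their controls. It joined 2 deposited tables of estimated counts, which carry no scaling between libraries.

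The Twist genes had the larger falls. Twist2 was at 32.5, 34.4 and 32.4 CPM in palatal shelves and 67.6, 63.4 and 116 CPM in maxillary processes, where library 3 was highest. Every maxillary library lay above every palatal library, and the palatal level was 0.400 of the maxillary level (log2 fold change -1.32 ± 0.22, adjusted p = 0.00228, edgeR). Without control library 3 the value was -1.03. Twist1, at 308 to 374 CPM against 541 to 675 CPM, stood at 0.554 of the maxillary level (log2 fold change -0.85 ± 0.12, adjusted p = 0.00109, edgeR). The Prrx genes followed. Prrx2, at 95.5 to 119 against 144 to 169 CPM, had a log2 fold change of -0.61 ± 0.12 (adjusted p = 0.00448, edgeR), and Prrx1, at 748 to 971 against 1134 to 1281 CPM, had one of -0.55 ± 0.13 (adjusted p = 0.00915, edgeR). These 4 genes passed under every alternative run, as did Tfap2b. Of the 10 mesenchyme markers 5 passed as higher in palatal shelves and 0 as lower. Their sum, at 12227 to 20188 CPM against 4899 to 9014 CPM, was made up largely of collagens, with means of 4327 against 590 CPM for Col1a1, 3633 against 1716 CPM for Col1a2 and 3630 against 1192 CPM for Col3a1. Snai2 (92.3 against 121 CPM) and Cdh2 (145 against 157 CPM) had lower means in the shelf and did not pass.

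The 2 AP-2 genes parted between the tissues. Tfap2b stood at 44.6, 79.7 and 54.0 CPM in palatal shelves and at 10.2, 6.15 and 7.45 CPM in maxillary processes. The lowest palatal library exceeded the highest maxillary library by a wide margin, and the fitted level was 7.48-fold higher (log2 fold change 2.90 ± 0.26, adjusted p = 0.000243, edgeR). Its paralog Tfap2a, at 17.0, 28.1 and 23.5 against 19.8, 14.9 and 15.9 CPM, overlapped and did not pass (log2 fold change 0.44 ± 0.20, adjusted p = 0.103, edgeR). Tfap2a passed with limma on log2(TPM + 1) (0.66, adjusted p = 0.0222) and without wild-type library 1 (0.63, adjusted p = 0.0248). Both genes are also active in ectoderm. All 13 ectoderm markers were higher in the palatal shelf (13 of 13 passed, median log2 fold change 6.96), with sums of 751, 882 and 969 CPM against 11.6, 3.58 and 2.08 CPM. Among control maxillary libraries 5 of the 13 were at 0 in library 2 and 7 in library 3, and none in any palatal library. The keratin gene Krt14 stood at 148, 197 and 209 CPM in palatal shelves and at 0.454, 0.0 and 0.0925 CPM in control maxillary processes. The part of ectoderm in the higher Tfap2b was not tested.

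**Figure D3:**
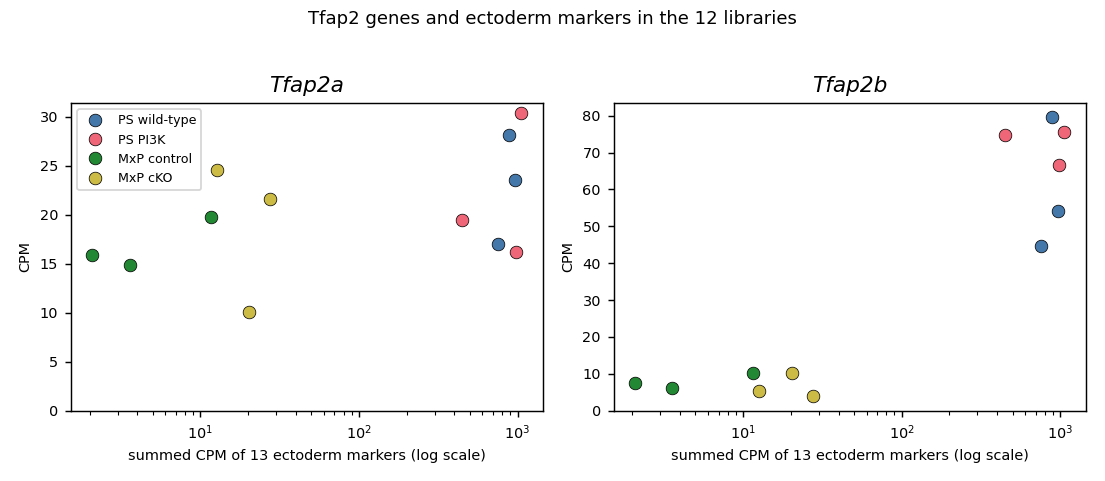
CPM of Tfap2a (left) and Tfap2b (right) in the 12 libraries against the summed CPM of the 13 ectoderm markers on a log axis; each point is 1 library, coloured by group. The ectoderm sums separate palatal shelf (446 to 1057 CPM) from maxillary process (2.08 to 27.5 CPM), Tfap2b separates with them, and Tfap2a overlaps between the tissues.

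Lhx6, Lhx8 and Six2 lay closer to the threshold. Lhx6, at 132, 190 and 173 CPM in palatal shelves and 234, 220 and 195 CPM in maxillary processes, was lower in the shelf without overlap (log2 fold change -0.40 ± 0.14, adjusted p = 0.0447, edgeR). That call was lost with limma on log2(TPM + 1) (adjusted p = 0.0916) and without wild-type library 1 (0.108), wild-type library 3 (0.10), control library 1 (0.105) or control library 2 (0.105). Lhx8, at 103, 147 and 104 against 167, 138 and 121 CPM, overlapped (log2 fold change -0.27, adjusted p = 0.228, edgeR), and passed only without wild-type library 2 (-0.44, adjusted p = 0.0413). Six2, at 260, 420 and 360 against 240, 277 and 255 CPM, had a log2 fold change of 0.42 and did not pass (adjusted p = 0.0657, edgeR). It passed with DESeq2 (adjusted p = 0.0336), with no filter on low counts (0.0426) and without wild-type library 1 (0.00772).

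**Figure D4:**
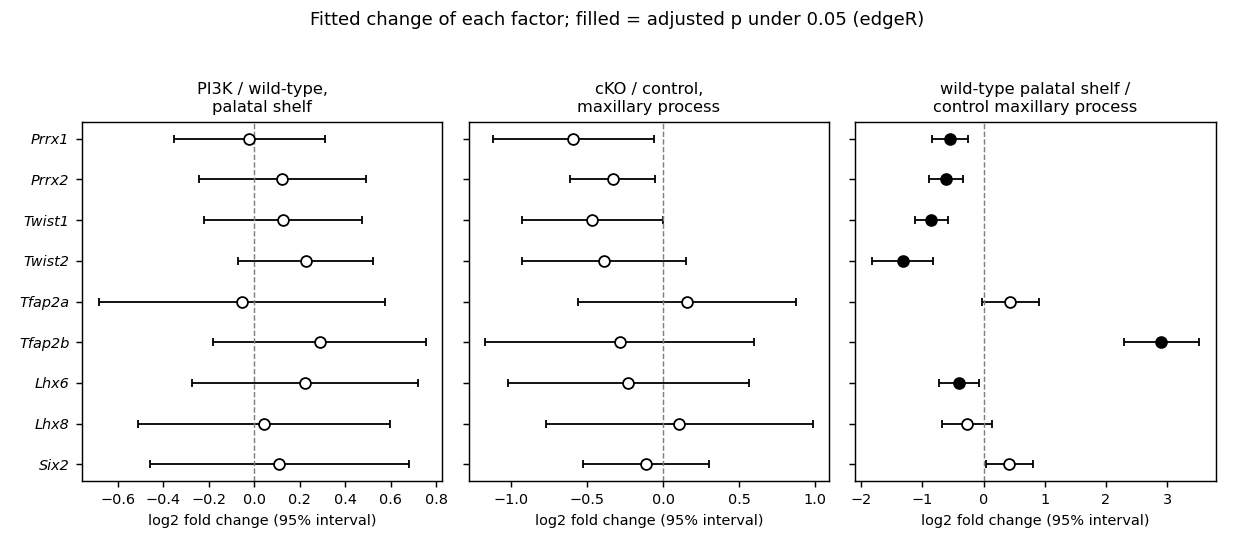
Fitted log2 fold change of each gene with its 95% interval in the 3 comparisons, on separate horizontal scales; filled points have an adjusted p under 0.05 in edgeR. All intervals of PI3K over wild-type palatal shelf include 0, those of Prrx1 and Prrx2 in cKO over control lie just below 0, and 6 points are filled in palatal shelf over maxillary process.

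Within a library, the ratio of 2 paralogs does not depend on the scaling between libraries. The ratio of Lhx6 to Lhx8 in TPM was 0.717, 0.777 and 0.721 in control maxillary processes and 0.560, 0.584 and 0.572 in the cKO libraries. All 3 cKO libraries lay below all controls, library 1 included, although the levels of both genes in that library were far below those in the others. The difference was -0.37 on the log2 scale, and the two-sided exact permutation test gave p = 0.1, the smallest that 3 against 3 allows (adjusted p = 0.48 over 12 tests). Under the alternatives run it stayed between -0.39 and -0.32. In palatal shelves the same ratio was 0.664, 0.608 and 0.813 in wild-type and 0.776, 0.709 and 0.901 in PI3K libraries, and the groups overlapped (exact permutation p = 0.3).

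The ratio of Tfap2a to Tfap2b was 0.885, 0.550 and 0.795 in wild-type palatal shelves and 2.24, 2.0 and 3.82 in control maxillary processes. Tfap2b was thus the more abundant in every wild-type shelf and Tfap2a in every control maxillary process, a difference of -1.82 on the log2 scale (exact permutation p = 0.1, adjusted p = 0.48). Among the cKO libraries the ratio ran from 1.15 in library 1 to 12.9 in library 3, wider than in any other group. Tfap2b rested on 69.0 to 193 estimated counts there. Its effective length, by which TPM is scaled and which is compared below, was 0.24 in library 1 and 1.11 in library 3 (log2, against the median gene). The part of either in this range was not tested. Prrx1 exceeded Prrx2 in all 12 libraries, by 1.33-fold in cKO library 1 and by 1.64-fold to 3.16-fold in the others. Twist1 exceeded Twist2 by 3.74-fold to 8.64-fold, and cKO library 1 was again the lowest. For these 2 pairs the groups overlapped in all 3 comparisons. Over the 4 pairs and 3 comparisons, 2 of 12 tests had groups that did not overlap. None could reach an adjusted p under 0.05, because the exact permutation test with 3 against 3 cannot give a p below 0.1. The share of other gene pairs with groups apart is not given here.

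**Figure D5:**
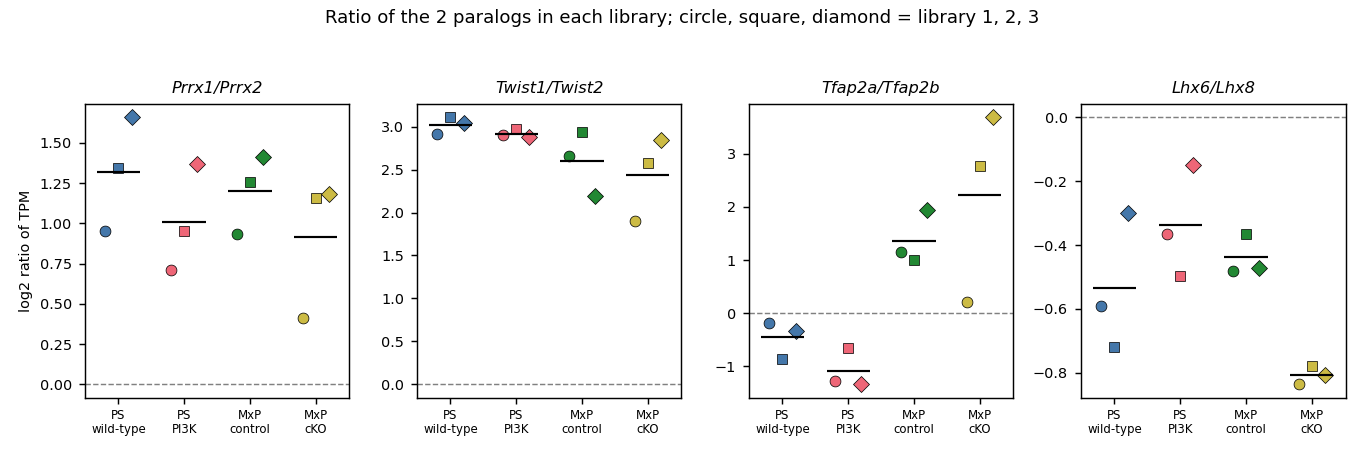
Ratio of the TPM values of 2 paralogs in each library, on a log2 axis with a separate scale in each panel; circles, squares and diamonds are libraries 1, 2 and 3, horizontal lines are group means and dashed lines mark equal levels. The 3 cKO libraries lie below the controls for Lhx6/Lhx8, and Tfap2a/Tfap2b lies below 0 in palatal shelves and above 0 in maxillary processes.

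Because the series concerns splicing, the effective length of each gene was also compared. It is the estimated count divided by TPM, taken as log2 and set against the median gene of the same library, and it moves when the mix of long and short transcripts of a gene moves. In the palatal shelf 1 of 12907 genes passed (0.00775%) and in the maxillary process 1 of 11002 (0.00909%, limma), and none of the 9 factors was among them. Prrx2 had the smallest p of the 9, with values of -1.22, -1.19 and -1.17 in wild-type and -1.27, -1.30 and -1.28 in PI3K shelves. Its difference of -0.09 had an unadjusted p of 0.00470 and an adjusted p of 0.967 (limma). Lhx6 differed by -0.06 (unadjusted p = 0.0365, adjusted p = 0.998, limma), and 3.90% of all genes tested had an unadjusted p under 0.05. In the maxillary process no factor had an unadjusted p under 0.05, where 5.16% of genes did. Twist1, with 1 annotated transcript, had a range of at most 0.022 in any group. Tfap2b, with 5 annotated transcripts, had the widest range, 1.07 among controls and 0.87 among cKO libraries, at 69.0 to 193 estimated counts. PI3K library 2 had a value of 0.75 for Prrx1, where the other 5 palatal libraries had 0.47 to 0.51.

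The spread between libraries of the same group was compared gene by gene. With each group's mean taken off the log2 CPM, 25 of the 36 pairs among the 9 genes (69.4%) had a positive Pearson correlation over the 12 libraries, with a median of 0.29, against 50.4% of all pairs of 11435 genes. Lhx6 and Lhx8 were the most alike (r = 0.97, Spearman's rho 0.98, and r = 0.90 without the 2 libraries farthest from the median). Tfap2a followed both, with r = 0.93 for Lhx8 and 0.92 for Lhx6, and Prrx1 went with Lhx6 (0.89) and Twist1 (0.88). Tfap2b went against Prrx1 (r = -0.65, or -0.16 without the 2 farthest libraries). The tissues differed for some pairs. Prrx2 had r = -0.72 with both Lhx6 and Six2 over the 6 palatal libraries, and 0.93 and 0.79 over the 6 maxillary libraries. Of the maxillary libraries, cKO library 1 deviated most for Prrx2 (-0.24), Lhx6 (-0.97) and Six2 (-0.45). Over the 12 libraries r was 0.21 with Lhx6 and -0.19 with Six2, or -0.15 and -0.51 without the 2 farthest libraries. Twist2 was near 0 with Lhx6 (-0.02) and Lhx8 (-0.03) over the 12. These are descriptions of 12 libraries that share scaling and tissue composition. Wild-type palatal library 1 was the lowest of its group for 7 of the 9 genes and library 2 the highest for 7, and PI3K library 1 was the lowest for 8 and library 2 the highest for 8. The sum of mesenchyme markers was highest in library 1 of each palatal group (20188 and 17532 CPM).

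Over 11422 genes with a mean of at least 5 CPM, the genes whose pattern lay nearest to each factor by the same measure were these. For Lhx6 they were Tbx3, a T-box factor (r = 0.98), and Skp2, an F-box protein of the cell cycle (0.97). Dnajc9 (0.97) lay near Lhx8, and for Six2 they were Atad5 (0.98) and Mllt3 (0.97). Tfap2a lay nearest to Stip1, a co-chaperone (0.99), and Cebpzos (0.98), and Tfap2b to Slc38a7 (0.92) and Shroom3, an actin-binding protein of epithelia (0.91). Prrx1 lay nearest to Ppfia1 (0.95) and Stx12 (0.94), Prrx2 to Rab1a (0.96) and Unc5b, a netrin receptor (0.95), Twist1 to Dus2 (0.96), and Twist2 to Scn8a (0.94) and Slc22a5 (0.92). The highest of 11422 correlations over 12 points is high by the choice itself.

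Relatives of the 9 factors, 31 other homeobox, basic helix-loop-helix and AP-2 genes, were counted in the same fits. In the palatal shelf 0 of 20 tested passed for PI3K against wild-type. The smallest p-values belonged to Tcf15 (log2 fold change 0.78), Msc (2.24), Hand2 (2.24) and Msx2 (1.49), all with adjusted p = 0.9997 (edgeR). Msx2, a homeobox factor of facial and limb mesenchyme, stood at 18.8 ± 2.27 CPM (SD, n = 3) in PI3K and 6.70 ± 6.80 CPM in wild-type shelves. Msc, known from muscle precursors of the jaw, stood at 2.25 ± 1.40 against 0.479 ± 0.517 CPM, and 7 skeletal muscle markers summed to 258, 33.4 and 142 CPM in PI3K and 53.4, 0.931 and 1.52 CPM in wild-type shelves. Their part in the result was not tested.

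In the maxillary process 0 of 19 relatives passed, 10 had an unadjusted p under 0.05 (12.2% of all genes did), and the median log2 fold change was 0.12 against 0.004 over all genes. Alx1, a paired-type factor of the upper face, stood at 51.5 ± 8.37 CPM in cKO libraries and 111 ± 13.4 CPM in controls (log2 fold change -1.10, adjusted p = 0.0662, edgeR). Alx4, its relative, stood at 216 ± 15.0 against 358 ± 28.8 CPM (-0.73, adjusted p = 0.0757, edgeR). Without cKO library 1, 1 relative passed as lower, where 29 of 14519 genes passed, 16 of them lower. Msc (6.51) and Hand2 (3.03) had positive values at levels of 3.98 ± 3.95 and 2.79 ± 2.30 CPM in the cKO libraries. Between the tissues 4 of 18 relatives were higher and 8 lower in wild-type palatal shelves, where 27.1% of all genes were higher and 23.4% lower. Shox2, a paired-type factor of the anterior palate, rose from 28.1 ± 7.23 to 330.2 ± 84.2 CPM (log2 fold change 3.55, adjusted p = 8.25e-05, edgeR). Six3 had 0 estimated counts in the 3 control maxillary libraries and 643 in the palatal shelves, and was at least 112-fold higher against a floor of 3 counts over the group. Isl1 (5.20) and Isl2 (2.67) were higher too. Six3 and Lhx2 are also among the forebrain markers, of which 5 of 7 tested passed as higher in the palatal shelf and 2 as lower. Isl1 is also among the neuron and glia markers, of which 2 of 8 tested passed as higher and 5 as lower. The part of such cells in these values was not tested. Msx1, needed for palate and tooth growth, was lower, with 136 ± 27.9 against 470.2 ± 23.0 CPM (-1.80, adjusted p = 0.000151, edgeR), as were Alx4 (-1.42), Alx1 (-1.29) and Lhx2 (-3.22).

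Partners and cofactors formed a list of 32 genes, among them E proteins and Id proteins for Twist, Ldb and Lmo proteins for the LIM factors, and Eya and Dach proteins for Six2. For PI3K against wild-type 0 of 32 passed, with a median of 0.08, and Dach1, a corepressor (0.49), Id4 (-0.32), Pbx3 (0.28) and Eya4 (0.51) had the smallest p-values. For cKO against control 0 of 31 passed, 12 had an unadjusted p under 0.05 (against 12.2% of all genes), and the median was -0.06. Eya4, of the coactivator family that works with Six2, stood at 30.2 ± 6.45 CPM in cKO libraries and 78.9 ± 10.4 CPM in controls (-1.38, adjusted p = 0.0626, edgeR). The homeodomain cofactors Meis1 (-1.29, adjusted p = 0.0878) and Meis2 (-1.36, adjusted p = 0.0954) and the E protein gene Tcf12 (-0.38, adjusted p = 0.280) followed in edgeR. Without cKO library 1, 2 of these cofactors passed as lower, where 29 of 14519 genes passed, 16 of them lower. Between the tissues 6 of 32 were higher and 15 lower in the palatal shelf (27.1% and 23.4% over all genes), with a median of -0.33 against 0.03 over all genes. Among the Id proteins, which hold E proteins away from DNA, Id2 (-1.34) and Id3 (-1.19) were lower and Id4 (1.60) was higher. Among the Eya coactivators, Eya1 (-1.26) was lower and Eya2 (1.34) higher. Meis1 (1.29) and Lmo1 (2.89) were higher, and Cited4, a coactivator that binds AP-2 proteins, was lower, with 0.381 ± 0.0815 against 11.2 ± 1.05 CPM (-4.87, adjusted p = 2.66e-05, edgeR).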

How the data were processed

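RNA-seq of 12 libraries was analysed from tables of gene totals. The deposited estimated counts were made by the authors with Salmon, and the deposited TPM values likewise, each with 1 column per library. The submitters' processing notes name STAR 2.7.0, Salmon 1.1.0, DESeq2 1.28.1 and the build mm10, with no order. The transcript index, strand setting and filters are not given in the sources used here. Of 53392 identifiers, 53355 matched GENCODE M21 without version, 52175 with the same version, and 37 did not match. No column lacked a sample.

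Estimated counts were rounded and tested with edgeR 4.0.16 (quasi-likelihood F-test, TMM, filterByExpr, Benjamini-Hochberg adjustment over all genes, threshold 0.05), each comparison on its own 6 libraries and the difference between genotype effects on all 12. Effective length was tested with limma 3.58.1 on genes with at least 50 counts in all 6 libraries. Paralog ratios were tested with exact permutations. Tests were first tried on simulated data. Alternatives were DESeq2-type size factors, no filter, DESeq2 1.42.0, limma on TPM after log2 with pseudocounts of 1 and 0.1, other count minimums, a replicate block, and leaving out each library. R was 4.3.3 and Python 3.11.15.

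Replicates of 1 group differed beyond sampling noise (chi-square over its degrees of freedom 11.7 or more), so 12 samples were counted. The labels call them biological replicates without naming embryos or litters, so p-values measure the spread between these samples, which may be partly technical. In the maxillary process, same-numbered libraries deviated together only weakly (r = 0.108, 0.152 and 0.298). Differently numbered libraries had r from -0.345 to 0.194, so whether the numbers pair libraries is uncertain. Blocked values stand beside the counts they change. The members and gene lists were chosen with earlier results of these data known. Named genes were the 9 members, the up to 4 genes with the smallest p in each direction per list, the 2 genes nearest to each member, Srsf3 and Pdgfra. Krt14 was chosen after its values were seen. List members and nearest genes are not all reported here. Precision is limited by 3 libraries per group.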

Additional observations from a re-analysis of the deposited data

How the results depend on the processing

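Of the 9 factors, 6 passed in the comparison of tissues and none in the others, and no alternative run added a factor to those of PI3K against wild-type or cKO against control. The counts over all genes depended more on the settings. DESeq2 called 5 genes for PI3K against wild-type, and for cKO against control 143 passed with no filter on low counts, 356 with DESeq2 and 40 with the replicate block, against 12. For the difference between genotype effects, 64, 147 and 45 passed in the same 3 settings, against 7. Lhx8 in cKO against control, 0.11, became -0.0239 with limma on log2(TPM + 1), -0.0251 with log2(TPM + 0.1) and -0.0224 with the replicate block, and in the difference between effects, -0.07, it became 0.0925 with limma and 0.0386 with the block. The effective length gave 0 calls with the replicate block in both tissues and 3 in the maxillary process with a count minimum of 10, and Twist2 in the palatal shelf, 0.00147, became -0.000844 and -0.000169 with count minimums of 10 and 200. The cause of these shifts was not tested.

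Leaving out 1 library at a time gave 2 to 29 calls for cKO against control and 4 to 26 for the difference between effects. For PI3K against wild-type, Prrx1 ran from -0.14 to 0.11, Twist1 from -0.0472 to 0.24, Tfap2a from -0.36 to 0.14, Lhx8 from -0.18 to 0.26 and Six2 from -0.0402 to 0.34. For cKO against control, Tfap2a ran from -0.0834 to 0.46, Lhx6 from -0.47 to 0.11, Lhx8 from -0.11 to 0.47 and Six2 from -0.23 to 0.0781, and in the difference between effects Tfap2a ran from -0.52 to 0.0333 and Lhx8 from -0.43 to 0.16. Calls of effective length ran from 0 to 1 in the palatal shelf and from 0 to 5 in the maxillary process. In the palatal shelf, effective length ran from -0.00315 to 0.137 for Prrx1, -0.00194 to 0.00936 for Twist1 and -0.00359 to 0.00727 for Twist2. In the maxillary process it ran from -0.0130 to 0.00385 for Prrx1, -0.0481 to 0.0844 for Prrx2, -0.0282 to 0.0288 for Tfap2a, -0.0566 to 0.0151 for Lhx6 and -0.00603 to 0.0176 for Six2. The log2 ratio of Prrx1 to Prrx2 between tissues ran from -0.0544 to 0.30, and that of Twist1 to Twist2 in cKO against control from -0.36 to 0.11.

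In the palatal shelf the replicate numbers did not pair the libraries (correlations of same-numbered libraries 0.498, 0.149 and -0.318). The replicate block there gave 0 calls and 581 genes with an unadjusted p under 0.05, against 354. The block changed no other call of a factor. Counts without cKO library 1 were chosen after seeing the data. With 3 libraries per group the 95% intervals show how precisely the log2 fold changes were estimated. In cKO against control the narrowest was -0.61 to -0.05 for Prrx2, and the widest -1.17 to 0.60 for Tfap2b.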
